A study of Mus musculus with 96 samples.

Results

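Gli, Glis and Zic proteins are related transcription factors that bind DNA through C2H2 zinc fingers, and the data described here are the histone marks and the Polycomb subunit Suz12 at 10 of their genes in mouse hippocampal nuclei. The genes are Gli1, Gli2, Gli3, Glis1, Glis2, Glis3, Zic1, Zic2, Zic4 and Zic5. Consensus peaks that the authors had annotated to one of these symbols were taken from all 6 tables (3 antibodies in 2 fractions of nuclei). This gave 22 of 22815 peaks, each counted in a window of 401 bp. The genes were chosen from those with a called peak, that is, on the enrichment measured over all libraries, and after earlier results of these data, including the one at Glis1, were known, so neither that result nor the pattern of marks over the genes supports anything here.

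Nuclei came from the hippocampus of 6-month-old male C57BL/6N mice and were separated by staining for NeuN, a protein of neuronal nuclei, into a NeuN+ (neuronal) and a NeuN- (non-neuronal) fraction. The mice were WT, Mutyh-/-, Ogg1-/- or the double knockout (DKO, Mutyh-/- and Ogg1-/-), so DKO mice lacked both DNA glycosylases, which start the repair of oxidised bases. Each sample pooled hippocampi of several animals of one genotype. H3K4me3, H3K27me3 and Suz12 were measured by chromatin immunoprecipitation and sequencing, with 3 replicates per genotype, which makes 12 libraries per table and 72 in all.

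Gli1, Gli2 and Gli3 carry the transcriptional output of Hedgehog signalling, with Gli1 an activator and itself a target of the pathway, Gli2 mostly an activator and Gli3 mostly a repressor when the ligand is absent. Glis1, Glis2 and Glis3 have similar zinc fingers and act outside that pathway, Glis3 for instance in pancreatic beta cells and the thyroid. Zic genes work in neural tube, forebrain and cerebellar development and lie in head-to-head pairs, Zic1 with Zic4 and Zic2 with Zic5. H3K4me3 marks active or poised promoters, and H3K27me3 is laid down by Polycomb repressive complex 2 (PRC2), of which Suz12 is a core subunit. Many developmental factors carry H3K27me3 in adult cells that no longer use them.

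Windows that carry the description are printed first, as the central 300 bases of the 401 bp window on the strand of the gene (GRCm38), in lower case with CpG dinucleotides in capitals. The Glis1 window is shown because it had the only called difference, the Gli3 window because both marks were found there, the Gli1 and Zic5 windows because each holds a binding motif of its own family, and the Zic2 window because it carried Suz12 over the start of its gene.
Glis1, H3K4me3 NeuN+, chr4:107434655-107434954, plus strand: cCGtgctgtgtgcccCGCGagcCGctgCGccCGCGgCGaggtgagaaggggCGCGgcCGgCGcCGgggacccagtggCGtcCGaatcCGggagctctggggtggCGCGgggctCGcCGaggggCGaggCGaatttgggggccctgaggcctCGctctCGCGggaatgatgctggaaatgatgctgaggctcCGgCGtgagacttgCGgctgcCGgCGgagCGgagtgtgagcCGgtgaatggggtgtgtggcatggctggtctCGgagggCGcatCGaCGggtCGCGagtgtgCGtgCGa
Gli3, H3K27me3 NeuN+, chr13:15463942-15464241, plus strand: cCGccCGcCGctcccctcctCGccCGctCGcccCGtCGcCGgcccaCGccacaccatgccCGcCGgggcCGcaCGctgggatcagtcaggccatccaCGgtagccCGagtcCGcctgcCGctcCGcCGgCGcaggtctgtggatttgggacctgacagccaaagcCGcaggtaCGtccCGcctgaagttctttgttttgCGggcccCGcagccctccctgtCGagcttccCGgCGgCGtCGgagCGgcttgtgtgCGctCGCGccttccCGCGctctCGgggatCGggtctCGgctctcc
Gli1, H3K27me3 NeuN+, chr10:127340642-127340941, minus strand: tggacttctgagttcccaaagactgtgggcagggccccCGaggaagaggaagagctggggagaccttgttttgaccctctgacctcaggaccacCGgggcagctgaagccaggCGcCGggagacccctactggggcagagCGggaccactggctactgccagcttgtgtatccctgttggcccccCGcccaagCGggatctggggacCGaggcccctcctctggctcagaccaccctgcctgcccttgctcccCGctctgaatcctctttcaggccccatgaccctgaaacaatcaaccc
Zic5, Suz12 NeuN+, chr14:122464544-122464843, minus strand: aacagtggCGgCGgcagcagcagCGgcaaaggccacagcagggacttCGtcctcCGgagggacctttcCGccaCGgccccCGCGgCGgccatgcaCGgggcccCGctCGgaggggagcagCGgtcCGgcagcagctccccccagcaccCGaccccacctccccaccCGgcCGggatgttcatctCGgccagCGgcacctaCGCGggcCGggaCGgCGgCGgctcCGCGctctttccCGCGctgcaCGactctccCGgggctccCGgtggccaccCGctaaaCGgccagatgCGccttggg
Zic2, Suz12 NeuN+, chr14:122475283-122475582, plus strand: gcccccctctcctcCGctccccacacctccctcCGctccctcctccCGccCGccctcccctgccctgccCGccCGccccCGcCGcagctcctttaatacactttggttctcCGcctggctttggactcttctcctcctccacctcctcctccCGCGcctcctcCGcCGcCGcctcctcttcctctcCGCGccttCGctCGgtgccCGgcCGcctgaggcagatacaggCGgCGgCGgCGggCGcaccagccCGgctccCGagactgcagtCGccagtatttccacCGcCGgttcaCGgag

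The printed stretches hold 40 CpGs at Glis1, 40 at Gli3, 9 at Gli1, 36 at Zic5 and 31 at Zic2. Over the whole 401 bp, the ratio of observed to expected CpGs was 1.09 at Glis1 in NeuN+ nuclei, 1.02 at the H3K27me3 window of the Gli3 start and 0.94 at Zic2. It was between 0.05 and 0.57 over the 7 windows of Zic4. The median over all windows was 0.79 in H3K4me3 NeuN+, 0.23 in H3K27me3 NeuN+ and 0.77 in Suz12 NeuN+, so the Gli3 start was richer in CpG than the usual H3K27me3 window. The Gli1 window holds ACCACCC, the core of the Gli binding site, searched on both strands, as do 6.22% of all H3K27me3 NeuN+ windows. The Zic5 window holds CCTGCTG, found in Zic binding sites and searched on both strands, as do 15% of all Suz12 NeuN+ windows. No other window of these genes holds either run of letters.

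The families differed in which marks gave a window. The 3 Glis genes had 5 windows, all of H3K4me3. The 4 Zic genes had 10 windows, 8 of H3K27me3 and 2 of Suz12. The 3 Gli genes had 7 windows, 2 of H3K4me3 and 5 of H3K27me3. By fraction, H3K4me3 gave 6 windows in NeuN+ and 1 in NeuN- nuclei, H3K27me3 gave 7 and 6, and Suz12 gave 2 and 0. These counts are what the choice by symbol returned and are given without a test. A gene without a window was below the authors' peak calling in that table, which does not show that the mark was absent.

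Depth differed between the tables. Reads in windows per library ranged from 96023 to 548706 in H3K4me3 NeuN+ and from 39320 to 120004 in H3K4me3 NeuN-. They ranged from 23794 to 52344 and from 19132 to 78250 in the H3K27me3 tables of NeuN+ and NeuN- nuclei, and from 6652 to 33035 in Suz12 NeuN+. Of the marker genes of neurons, 9 of 10 had an H3K4me3 window within 1 kb of the start in NeuN+ nuclei and 0 of 10 in NeuN- nuclei. Markers of glia were thinly covered: 3 of 7 astrocyte genes and 1 of 9 oligodendrocyte lineage genes had such a window in NeuN+ nuclei, 1 of 7 and 1 of 9 in NeuN- nuclei, and 0 of 5 microglial genes and 0 of 6 vessel and meninges genes in either. H3K4me3 windows at neuronal markers thus match the NeuN+ label, but NeuN+ nuclei also had windows at some glial markers. H3K27me3 windows within 1 kb of the start lay at 2 of 10 neuronal markers in NeuN+ and at 1 of 10 in NeuN- nuclei. The NeuN- tables hold few windows at markers of any cell type listed. How far mixtures of cell types set the values below was not tested.

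Levels were ranked within a table, where all windows have the same width. Each percentile below is the position of a window's mean value over 12 libraries among all windows of its table, where a value is the number of reads divided by a factor for the library (normalised reads). At the Gli3 start, the H3K4me3 window was at percentile 13.2 in NeuN+ nuclei, and the H3K27me3 window at percentile 93.2 in NeuN+ and 89.0 in NeuN- nuclei. In NeuN+ nuclei these windows of both marks shared 268 bp, over exon and UTR sequence of the gene. Gli1 had H3K27me3 at percentile 94.5 in NeuN+ nuclei and no H3K4me3 window. Gli2 had low windows of both marks in NeuN+ nuclei, at percentile 7.10 for H3K4me3 and 11.5 for H3K27me3, with 408 bp between them. The 3 Gli genes thus differed in the balance of the marks, with H3K27me3 high at Gli1 and Gli3 and low at Gli2.

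**Figure D1:**
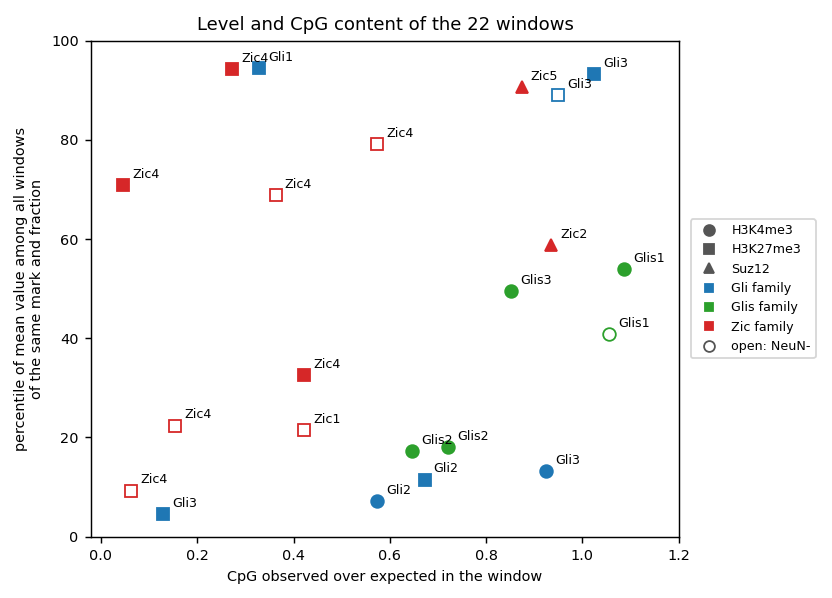
Each of the 22 windows by the ratio of observed to expected CpGs (x axis) and the percentile of its mean value over 12 libraries among all windows of the same mark and fraction (y axis). Colours give the family, marker shapes the antibody and open markers NeuN- nuclei. Glis windows of H3K4me3 sit at percentile 53.9 or below, while 1 Zic4, 1 Gli1 and 1 Gli3 window of H3K27me3 in NeuN+ nuclei lie at 93.2 or above.

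Glis genes were in the middle or lower part of the H3K4me3 ranking. In NeuN+ nuclei Glis1 was at percentile 53.9, Glis3 at 49.5 and the windows of Glis2 at 18.1 and 17.3. Ranks depended on the libraries used. With the WT libraries alone Glis1 was at percentile 21.03 in NeuN+ nuclei, and in NeuN- nuclei it was at 75.5 in place of 40.8. Other ranks moved as well, with the distal Glis2 window going from 18.1 to 5.06 and the Gli2 H3K27me3 window from 11.5 to 27.03. For H3K27me3, Gli1 in NeuN+ nuclei went from 94.5 to 81.2 and the Gli3 start in NeuN- nuclei from 89.0 to 73.7. The Gli3 start in NeuN+ nuclei went from 93.2 to 92.8. In NeuN- nuclei the Zic4 windows at -9789 and 1900 bp went from 68.8 to 93.9 and from 79.2 to 52.5, which reversed their order. The nearest H3K27me3 window of the same fraction lay between 782865 and 1566958 bp from each of the 5 Glis windows. No Glis gene therefore had a window of both marks.

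Zic windows reached high ranks for H3K27me3 and Suz12. In NeuN+ nuclei the Zic4 window annotated as promoter was at percentile 94.3 for H3K27me3, and Zic5 and Zic2 were at percentile 90.6 and 58.8 for Suz12. Zic2 had no H3K27me3 window under its own symbol, but one of NeuN+ nuclei lay 11 bp from its Suz12 window and was annotated to the neighbouring gene 2610035F20Rik, at a mean of 11.9 normalised reads and percentile 94.97. The same window was the nearest to the Zic5 Suz12 window, at 9926 bp. In NeuN- nuclei the Zic1 window was at percentile 21.4, and the 4 Zic4 windows ranged from 9.25 to 79.2.

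Annotation to the closest gene placed several windows under a symbol whose gene they do not overlap. Against GENCODE M21, the Zic1 window (at -629 bp from the annotated Zic1 start) lies inside the Zic4 gene, the head-to-head partner. The Zic4 windows at 30589 and 121675 bp from the annotated start lie inside the lincRNA gene Gm29478, and those at -9789, 21033 and 394688 bp overlap no gene. The annotated distances of Zic4 windows do not all refer to the same start. The window annotated as promoter at -756 bp is centred 14828 bp after the GENCODE Zic4 start, inside the gene. The one at 1900 bp is centred 22097 bp after that start, over exon and coding sequence. The Glis1 windows also overlap a miRNA gene model, Gm24804, the Glis3 window a lincRNA gene, D930032P07Rik, and the Gli1 window an antisense gene, Gm47200. Of the 22 windows, the NeuN+ H3K27me3 windows of Zic4 at 121675 and 394688 bp consist of 55.9% and 66.3% of bases masked as repeat, and the other 20 of less than 50%.

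Whether enrichment at these windows differed between knockout and WT mice was tested for each window and knockout against WT, with limma on log2(value + 1) and 12 libraries in one fit. A window was called where p was under 0.05 and the absolute log2 fold change was over 0.5. These are the study's cut-offs for a differentially enriched region, which it applied to edgeR results and not to limma. Of the 66 pairs of window and knockout, 1 was called, namely Glis1 H3K4me3 in NeuN+ nuclei of Ogg1-/- mice. Over all 22815 windows, 1.99% were called in Mutyh-/-, 2.3% in Ogg1-/- and 2.1% in DKO, against 0, 1 and 0 of the 22 windows of these genes. No window of these genes had a limma adjusted p under 0.05, the lowest being 0.915, and over all windows 0.0438%, 0.0175% and 0.00438% had one in Mutyh-/-, Ogg1-/- and DKO. At an unadjusted p under 0.05 limma had 1 of the 66 pairs. By the same call rule, edgeR with TMM factors called 2, 1 and 1 windows and DESeq2 1, 2 and 1, again with 0 at an adjusted p under 0.05. The shares of all windows that these fits called against WT are not given, so these counts have no background. In the comparison of fractions for H3K4me3 below, such fits called larger shares of all windows than the main fit. In the main fit, SEs and p-values measure spread between pooled samples, but not that of each window alone. For H3K27me3 and Suz12 they rest wholly on a trend of spread with mean level over all windows of a table. For H3K4me3 that trend had 24.9 (NeuN+) and 58.3 (NeuN-) prior degrees of freedom, against 8 of the window. A window's own SD on the log2 scale differed from the SD used in both directions. It was 1.31 against 0.92 at Gli1 H3K27me3 and 0.83 against 1.35 at Zic2 Suz12.

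**Figure D2:**
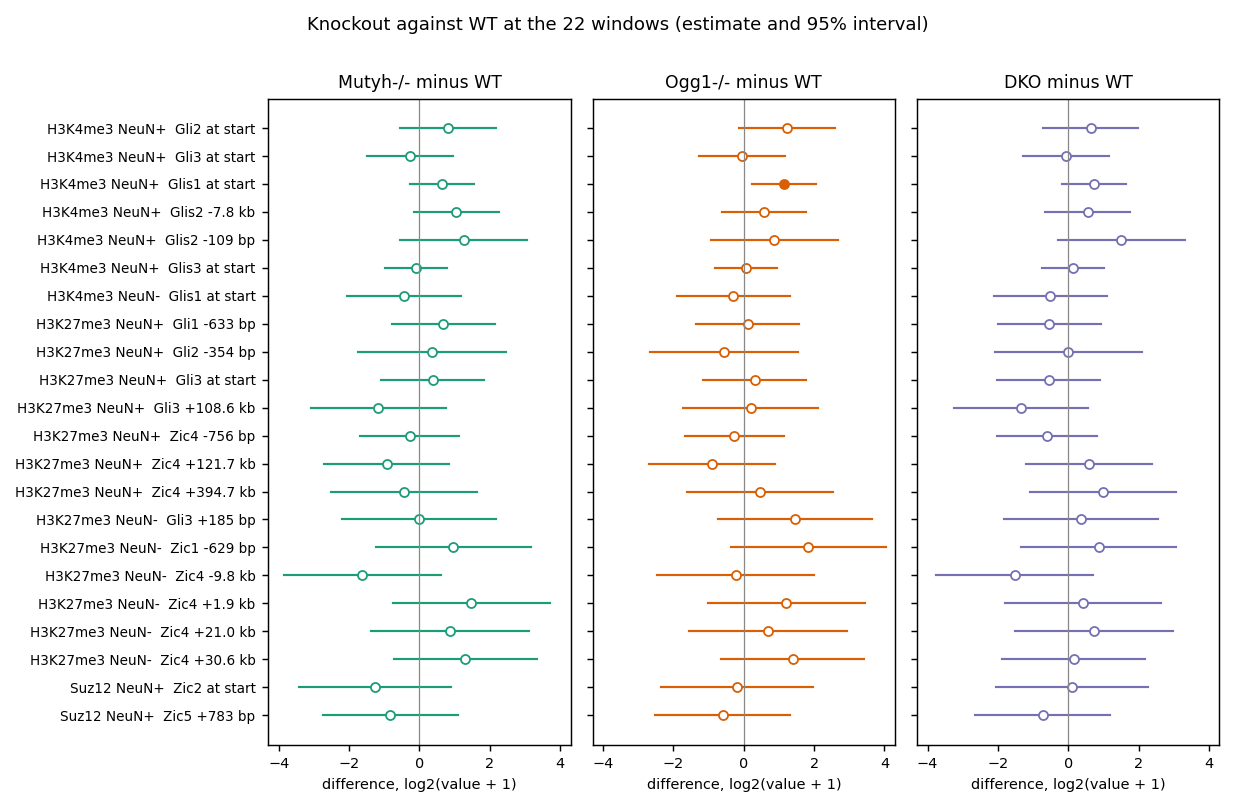
Difference of each knockout from WT on the log2(value + 1) scale (x axis, point with 95% interval from limma) at the 22 windows (y axis, antibody, fraction, gene and distance to the annotated start, with "at start" for a distance of 0). The filled point, Glis1 H3K4me3 in NeuN+ nuclei of Ogg1-/- mice at 1.14, is the only called one, and every other interval includes 0.

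Glis1 was marked by H3K4me3 at its start in both fractions, in windows that shared 338 bp (chr4:107434605-107435005 in NeuN+ and chr4:107434542-107434942 in NeuN- nuclei), over exon and UTR sequence. In NeuN+ nuclei, WT libraries had 19.3, 7.81 and 19.4 normalised reads, Mutyh-/- libraries 20.7, 21.1 and 28.0, Ogg1-/- libraries 32.1, 25.6 and 43.1, and DKO libraries 15.8, 30.6 and 31.1. All 3 Ogg1-/- and all 3 Mutyh-/- libraries lay above all 3 WT libraries, while 1 DKO library lay among the WT libraries. The means were 15.5 ± 6.66 (SD, n = 3) in WT, 23.3 ± 4.11 in Mutyh-/-, 33.6 ± 8.80 in Ogg1-/- and 25.8 ± 8.68 in DKO. The log2 fold change of Ogg1-/- was 1.14 (SE 0.45, 95% interval 0.23 to 2.05, limma adjusted p = 1.00), and 0.966% of all windows of H3K4me3 in NeuN+ nuclei were called for Ogg1-/-. For Mutyh-/- it was 0.65 (SE 0.45, interval -0.27 to 1.56) and for DKO 0.74 (SE 0.45, interval -0.17 to 1.65). These values rest on 8 to 18 reads per library in WT, 25 to 56 in Ogg1-/- and 7 to 41 in DKO. Without WT replicate 2, the library with 7.81, the log2 fold change of Ogg1-/- was 0.74. Without Ogg1-/- replicate 3 it was 0.95. Neither was called, so the call rested on each of these libraries. The DKO library among the WT libraries, replicate 1, had 7 reads here and the fewest reads in windows of the table (96023). Without it, the log2 fold change of DKO was 1.05 and was called. The share of all windows called in that setting is not given.

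In NeuN- nuclei the Glis1 values lay the other way round. WT libraries had 9.68, 17.3 and 7.09 normalised reads, Mutyh-/- 12.4, 10.4 and 3.25, Ogg1-/- 10.9, 5.59 and 9.94, and DKO 17.6, 2.86 and 6.70. The genotypes overlapped throughout. The log2 fold changes were -0.43, -0.30 and -0.51 for Mutyh-/-, Ogg1-/- and DKO (SE 0.81 each, limma adjusted p of 0.999 or more). The difference between the fractions was tested in one limma fit over the 3000 H3K4me3 windows that overlapped one to one. It was 1.43 for Ogg1-/- (SE 0.89), 1.08 for Mutyh-/- and 1.25 for DKO, none of them called, so the knockout effects at Glis1 were not shown to differ between NeuN+ and NeuN- nuclei, and adjusted p was 0.999 or more. Both fractions were collected from the same sorted nuclei, but this fit did not pair them. With same-numbered libraries of the fractions paired, 0 differences were called. With TMM factors (limma or edgeR) and with DESeq2, each of these 3 differences was called, with adjusted p of 0.186 or more, in fits that called 4.6% to 5.4% (TMM factors) and 7.37% to 7.8% (DESeq2) of the 3000 windows for one knockout. In the fit with the authors' factors, where Glis1 was not called, 2.3% of the windows were called for such a difference in Mutyh-/-, 1.8% in Ogg1-/- and 1.8% in DKO. Glis1 and Mutyh are both on chromosome 4, with 9.17 Mb between them, and whether DNA linked to the Mutyh deletion differs from WT at Glis1 was not tested.

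**Figure D3:**
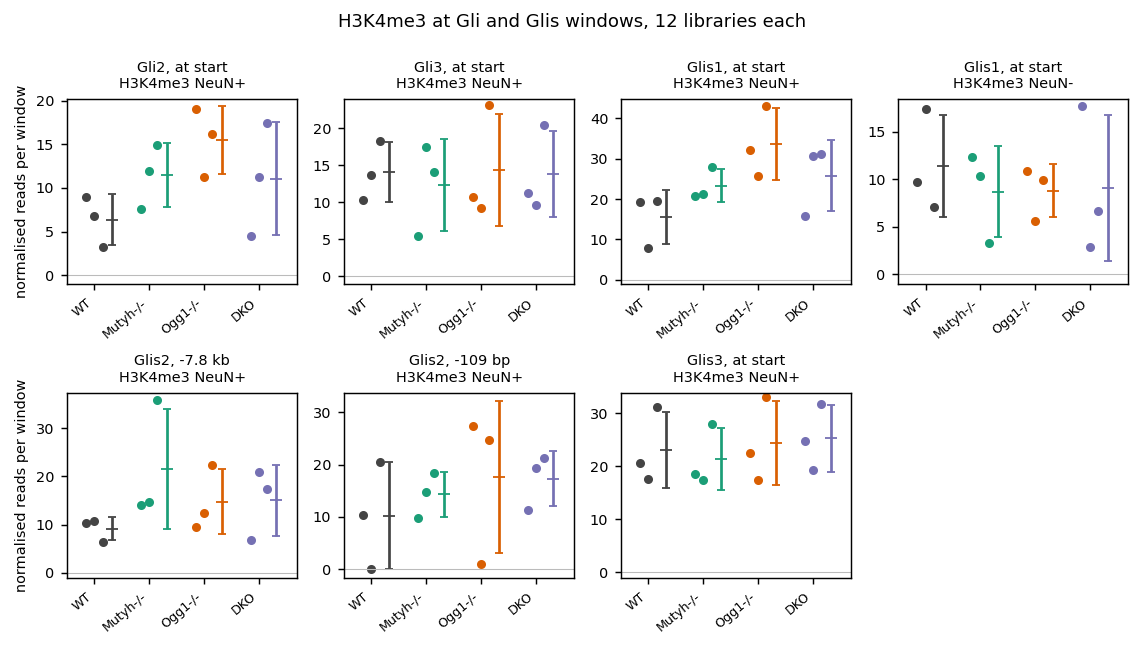
Normalised H3K4me3 reads per 401 bp window (y axis) in each library (points) of the 4 genotypes (x axis), with the mean and SD over 3 replicates at the right of the points. In NeuN+ nuclei the Glis1 window has its 3 Ogg1-/- libraries between 25.6 and 43.1, above the WT libraries, whereas the genotypes overlap at Gli3 and Glis3 and at Glis1 in NeuN- nuclei.

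Gli2 (chr1:119053164-119053564, over the start, with exon, UTR and coding sequence) had little H3K4me3 in NeuN+ nuclei. WT libraries had 9.004, 6.83 and 3.23 normalised reads, Mutyh-/- 7.63, 11.9 and 14.9, Ogg1-/- 19.0, 11.3 and 16.1, and DKO 4.51, 11.3 and 17.4. The Ogg1-/- libraries all lay above WT, with a log2 fold change of 1.22 (SE 0.67, 95% interval -0.13 to 2.58), and the other genotypes overlapped WT. At its H3K27me3 window the 12 libraries ranged from 0 to 6.99 normalised reads, 2 of them without a read. The log2 fold changes there were 0.35, -0.56 and 0.01 for Mutyh-/-, Ogg1-/- and DKO (SE 1.07 each), so a change of the size of this SE was not detectable at this depth.

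Gli3 (chr13:15463759-15464159 for H3K4me3) showed overlapping genotypes for both marks in NeuN+ nuclei. H3K4me3 was at 10.3, 13.7 and 18.3 normalised reads in WT, 5.45, 17.5 and 14.0 in Mutyh-/-, 10.7, 9.23 and 23.1 in Ogg1-/- and 11.3, 9.65 and 20.5 in DKO. The log2 fold changes lay between -0.28 and -0.05 (SE 0.60 each), with a 95% interval for DKO from -1.29 to 1.16. H3K27me3 at the overlapping window (chr13:15463892-15464292) was at 2.19, 21.04 and 12.9 in WT, 10.1, 7.74 and 20.98 in Mutyh-/-, 12.9, 6.27 and 17.5 in Ogg1-/- and 5.46, 2.91 and 11.2 in DKO. DKO had the lowest mean, 6.53 ± 4.26 (SD, n = 3) against 12.1 ± 9.45 in WT, but the log2 fold change of -0.55 (SE 0.75, limma adjusted p = 0.998) was within the spread.

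In NeuN- nuclei, H3K27me3 at the Gli3 start (chr13:15464165-15464565) was at 1.32, 8.29 and 5.77 normalised reads in WT and at 13.2, 9.81 and 19.1 in Ogg1-/-. Mutyh-/- had 18.3, 6.34 and 0 and DKO 15.6, 4.62 and 2.27. The Ogg1-/- libraries lay above the WT libraries, 1 of 6 windows of these genes in that table, where 9.01% of all windows showed the same. The log2 fold change was 1.46 (SE 1.12, limma adjusted p = 0.963), against a median of 0.58 over all windows. For Gli3 the difference between fractions for Ogg1-/- was -1.15 (SE 1.356, limma adjusted p = 0.953), and 2.01%, 2.41% and 0.803% of the 249 H3K27me3 windows compared were called for a difference in Mutyh-/-, Ogg1-/- and DKO, against 0 for Gli3. The second H3K27me3 window, in intron 3 and 108573 bp from the start, had no read in 6 of 12 libraries.

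Gli1 (chr10:127340592-127340992) had an H3K27me3 window in NeuN+ nuclei only. Its values were 7.67, 11.1 and 7.76 normalised reads in WT, 16.2, 8.85 and 20.98 in Mutyh-/-, 4.95, 12.5 and 13.4 in Ogg1-/- and 0, 10.7 and 24.9 in DKO. DKO replicate 1, with no read, and DKO replicate 3, with 31 reads, were the lowest and the highest of the 12 libraries. The log2 fold changes were 0.68, 0.11 and -0.53 (SE 0.75 each, limma adjusted p of 0.992 or more), and the genotypes overlapped.

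Glis2 had windows of H3K4me3 at its promoter (chr16:4594204-4594604, at -109 bp from the start) and further upstream, at -7797 bp (chr16:4586516-4586916). At the promoter, WT had 10.3, 0 and 20.5 normalised reads, Mutyh-/- 9.81, 14.7 and 18.4, Ogg1-/- 27.4, 1.03 and 24.6 and DKO 11.3, 19.3 and 21.2. The spread was wide because WT replicate 2 had 0 reads and Ogg1-/- replicate 2 had 1. The log2 fold changes were 1.25, 0.87 and 1.505 for Mutyh-/-, Ogg1-/- and DKO (SE 0.89 each, limma adjusted p = 1.00). At the distal window, WT had 10.3, 10.7 and 6.46 and Mutyh-/- 14.2, 14.7 and 35.9, with all 3 Mutyh-/- libraries above WT. That log2 fold change was 1.05 (SE 0.59, 95% interval -0.15 to 2.26) and was not called, while edgeR called it at 1.23 with TMM factors and at 1.24 with the authors' factors.

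Glis3 (chr19:28679523-28679923, exon and UTR), with the smallest SE of the 22 windows, had 20.6, 17.6 and 31.2 normalised reads of H3K4me3 in WT, 18.5, 17.5 and 28.0 in Mutyh-/-, 22.6, 17.4 and 33.1 in Ogg1-/- and 24.8, 19.3 and 31.8 in DKO. The genotypes lay over each other. The log2 fold changes were between -0.10 and 0.14 (SE 0.43 each), and the widest bound of the 95% intervals was 1.02, for DKO.

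Over the 6 H3K4me3 windows of NeuN+ nuclei, 4, 5 and 5 had a log2 fold change above 0 in Mutyh-/-, Ogg1-/- and DKO. Of all windows of the table, 42.3%, 58.7% and 47.8% did. Their medians were 0.73, 0.72 and 0.60, against medians of -0.07, 0.08 and -0.02 over all 12628 windows of the table. With TMM factors the medians were 0.73, 0.56 and 0.53, against 0.00, 0.00 and -0.01 over all windows. All 3 knockout libraries lay above all 3 WT libraries at 2 of 6 windows in Mutyh-/- (Glis1 and the distal window of Glis2), at 2 of 6 in Ogg1-/- (Glis1 and Gli2) and at 0 of 6 in DKO, where 2.16%, 2.83% and 3.1% of all windows did so. Per 10000 reads in windows, the 6 windows held 2.64 ± 0.44 reads (SD, n = 3) in WT, 3.67 ± 0.50 in Mutyh-/-, 3.79 ± 0.12 in Ogg1-/- and 3.67 ± 0.55 in DKO. Without Glis1 these were 2.14 ± 0.39, 2.84 ± 0.51, 2.70 ± 0.23 and 2.81 ± 0.49. With Glis1, the highest WT library was at 3.15 and the lowest knockout library at 3.22, and without it the highest WT library, at 2.53, lay above the lowest of each knockout. The 3 comparisons share the WT libraries, so their common direction is not 3 observations.

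Zic4 had H3K27me3 in every NeuN+ library at the window annotated as its promoter (at -756 bp), which lies inside the gene. WT had 13.1, 8.86 and 19.0 normalised reads, Mutyh-/- 9.13, 9.95 and 13.0, Ogg1-/- 7.93, 7.32 and 20.6 and DKO 3.28, 11.6 and 13.6. The genotypes overlapped, with log2 fold changes of -0.28, -0.27 and -0.60 (SE 0.72 each, limma adjusted p of 0.992 or more). The window at 121675 bp ranged from 0 to 11.2 normalised reads and the one at 394688 bp from 0 to 9.25. At the first of them DKO was at 10.9, 7.75 and 11.2 while both single knockouts had 1 library without a read, and the non-additive DKO effect of 2.43 (SE 1.29, 95% interval -0.10 to 4.95) had the lowest p of the 22 windows for that contrast.

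In NeuN- nuclei, Zic1 (chr9:91366439-91366839) and 4 Zic4 windows had few H3K27me3 reads. Zic1 had 0, 0 and 2.31 normalised reads in WT, 4.80, 3.17 and 0 in Mutyh-/-, 7.89, 0.82 and 8.35 in Ogg1-/- and 5.20, 0 and 2.27 in DKO. The log2 fold change of Ogg1-/- was 1.84 (SE 1.13, limma adjusted p = 0.963), where Ogg1-/- replicate 2 had 1 read. That library had no read at 40.8% of all windows of the table, the highest share, and none at 3 of the 4 Zic4 windows. Without it, the Zic1 window and 2 Zic4 windows were called for Ogg1-/- (log2 fold changes of 2.61, 2.64 and 2.29, limma adjusted p = 0.470 each), all higher. In that setting 10.3% of all windows of the table were called for Ogg1-/-, against 4.18% with all libraries. The Zic4 window at -9789 bp had log2 fold changes below 0 in all 3 knockouts, with 7.94, 11.6 and 6.92 in WT, 8.65, 2.11 and 0 in Mutyh-/- and a log2 fold change of -1.63 for Mutyh-/- (SE 1.14, limma adjusted p = 0.998). The medians over all windows of this table were 0.29, 0.58 and 0.41 for Mutyh-/-, Ogg1-/- and DKO, with 61.2%, 73.5% and 67.4% of windows above 0, beside 0.91, 1.30 and 0.39 over the 6 windows of these genes. With TMM factors the medians of all windows were 0.07, 0.17 and 0.15 and those of the 6 windows 0.52, 0.72 and 0.13.

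Suz12 had windows at Zic5 (chr14:122464494-122464894, exon and coding sequence, 783 bp after the start) and Zic2 (chr14:122475233-122475633, over the start, exon and UTR), in NeuN+ nuclei only. Zic5 had 13.4, 30.7 and 37.6 normalised reads in WT, 7.38, 20.7 and 16.2 in Mutyh-/-, 9.91, 24.7 and 16.9 in Ogg1-/- and 5.95, 21.9 and 23.6 in DKO. Zic2 had 5.36, 14.9 and 20.1 in WT, 2.46, 13.5 and 2.03 in Mutyh-/-, 7.93, 9.42 and 14.1 in Ogg1-/- and 9.35, 12.5 and 18.1 in DKO. At both windows replicate 1 of WT was far below the other WT libraries, and the genotypes overlapped. For Mutyh-/- the log2 fold changes were -0.83 (SE 0.98) at Zic5 and -1.27 (SE 1.10) at Zic2, with a limma adjusted p of 0.916 each. For Ogg1-/- they were -0.60 and -0.20, and for DKO -0.72 and 0.11. Same-numbered WT and Mutyh-/- libraries deviated together in this table, and within these pairs the Mutyh-/- value was lower in 3 of 3 at Zic5 and in 3 of 3 at Zic2. This was not particular to Mutyh-/- at Zic5, where each Ogg1-/- and each DKO value also lay below that of the same-numbered WT library. At Zic2, replicate 1 of Ogg1-/- and of DKO lay above replicate 1 of WT. The share of all windows that were lower in 3 of 3 pairs is not given. Only 26.7% of all windows of the table had a log2 fold change above 0 in Mutyh-/-, so lower values were common there. With the replicate number as a block neither window was called (limma adjusted p = 0.476 at Zic5 and 0.437 at Zic2). The median over all 775 Suz12 windows was -0.63 for Mutyh-/-, -0.57 for Ogg1-/- and -0.06 for DKO, and with TMM factors it was -0.06, -0.06 and 0.07. On that scale Zic5 and Zic2 ranged from -0.62 to -0.20 for Mutyh-/-, from -0.03 to 0.34 for Ogg1-/- and from -0.53 to 0.26 for DKO.

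**Figure D4:**
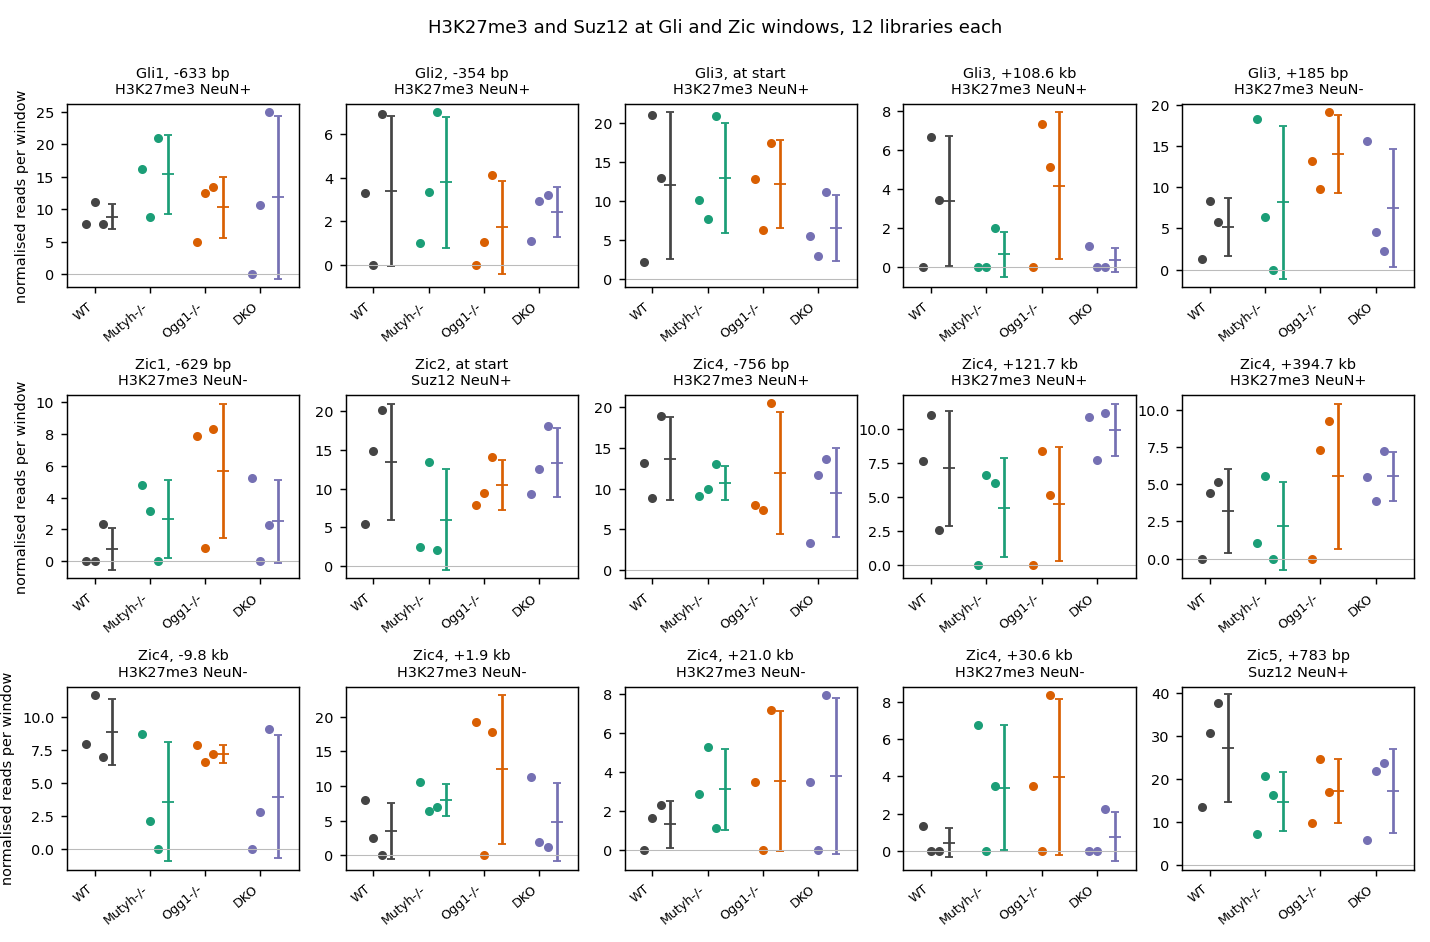
Normalised H3K27me3 and Suz12 reads per 401 bp window (y axis, its own scale in each panel) in each library (points) of the 4 genotypes (x axis), with the mean and SD over 3 replicates at the right of the points. Genotypes overlap in nearly every panel, and libraries at 0 are frequent at the distal Zic4 windows and at Zic1.

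Whether the DKO effect differed from the sum of the single knockouts was tested at the 22 windows with the contrast DKO minus Mutyh-/- minus Ogg1-/- plus WT. In limma, 0 windows were called, with 0 at an unadjusted p under 0.05, while edgeR with TMM factors called 1 (Glis1 in NeuN+ nuclei, -0.94) and DESeq2 0. The limma value at Glis1 was -1.04 (SE 0.63). In limma, 0.839% and 3.03% of all windows were called for this contrast in H3K4me3 of NeuN+ and NeuN- nuclei. The limma shares were 3.92% and 2.47% in H3K27me3 and 5.16% in Suz12 of NeuN+ nuclei. The share of all windows that edgeR called is not given, so its 1 call has no background.

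Other genes of the Hedgehog pathway were covered as a list of 39 genes, chosen with earlier results known. Of these, 36 had a window, 87 in all, with 33 in H3K4me3 NeuN+ and 25 in H3K27me3 NeuN+. The 3 ligand genes had 7 windows and the 14 intracellular regulators 19, and 0 of these were called in any knockout. Over all 22815 windows, 1.99%, 2.3% and 2.1% were called in Mutyh-/-, Ogg1-/- and DKO, and of the 87 windows of the list 1, 0 and 1 were. Called were 2 genes, both higher: Scube3, which codes for a secreted protein that helps to release the ligand, and Ptch1, the receptor and a target of the pathway. The median log2 fold change over the list and the 3 knockouts was -0.07, beside 0.02 over all windows and 0.18 over the windows of the 10 genes. These medians pool tables whose own medians ranged from -0.63 (Suz12 NeuN+, Mutyh-/-) to 0.58 (H3K27me3 NeuN-, Ogg1-/-). The 3 sets also differ in make-up. H3K4me3 NeuN+ gave 12628 of all 22815 windows, 33 of the 87 and 6 of the 22 windows of the 10 genes. How far this sets the medians was not tested.

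Scube3 (chr17:28142050-28142450, promoter) had H3K4me3 in NeuN+ nuclei at 7.72, 4.88 and 10.8 normalised reads in WT and 20.7, 21.1 and 20.1 in Mutyh-/-. The 3 Mutyh-/- libraries lay above WT, with a log2 fold change of 1.358 (SE 0.57, limma adjusted p = 1.00), and 0.911% of all windows of the table were called in Mutyh-/-, with 0.341% called higher. Ptch1 (chr13:63564635-63565035, promoter) had H3K4me3 in NeuN- nuclei at 4.15, 6.30 and 0 in WT and 26.0, 7.86 and 11.2 in DKO. Its log2 fold change was 2.09 (SE 1.02, limma adjusted p = 0.999), where 2.29% of all windows of the table were called in DKO, with 1.5% called higher.

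Gli3, which had windows in the most tables (3), was compared with 13116 other genes by the percentiles of their highest windows in the 6 tables, with 0 where a gene had no window. The 3 genes at the smallest Euclidean distance were Hs3st3a1 (4.78), which codes for a heparan sulfate sulfotransferase, Mlxipl (5.74), a glucose-responsive transcription factor, and Fgf3 (6.00), a fibroblast growth factor. Hs3st3a1 was at percentile 10.8 for H3K4me3 in NeuN+ nuclei and at 89.55 and 90.9 for H3K27me3 in NeuN+ and NeuN- nuclei, beside 13.2, 93.2 and 89.0 for Gli3. Ranked over all libraries, all 4 genes had low H3K4me3 in NeuN+ nuclei, high H3K27me3 in both fractions and no Suz12 window. With the WT libraries alone, the Gli3 start in NeuN- nuclei was at percentile 73.7 for H3K27me3.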

How the data were processed

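Chromatin immunoprecipitation for H3K4me3, H3K27me3 or Suz12 was sequenced from NeuN+ and NeuN- nuclei of 4 genotypes, 3 libraries each. According to the study's methods and the submitters' processing notes, single-end reads were aligned to GRCm38 with Bowtie2 2.3.5.1, peaks were called with epic2, a consensus was made of peaks present in most replicates of a genotype, reads were counted with DiffBind 3.10.1 and peaks were annotated to the closest gene with ChIPseeker 1.36. Hence a window exists only where a peak was called. The deposited values are a signal that the authors made by dividing reads per window by a factor of the library. All deposited values came out as whole multiples of 1 read within 0.01 read (100%), and these reads were used only for edgeR and DESeq2. Input libraries were not used here.

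Genotypes were compared with WT in each table with limma 3.58.1 (trend) on log2(value + 1), with no filter and genotype as the only term. The pseudocount means that fold changes of low windows are understated. P-values were adjusted over all windows of a table by Benjamini-Hochberg, and levels were not compared across tables, which were normalised separately. Alternatives were edgeR 4.0.16, DESeq2 1.42.0, TMM factors, pseudocounts of 0.5 and 5, robust estimation, filters on low values and on repeats, a replicate block and leaving out each of 12 libraries. The code was tested on simulated data. Sequences and annotation came from GRCm38 with GENCODE M21. Whether same-numbered libraries pair was checked by correlating their deviations from the group means. Only Suz12 NeuN+ in Mutyh-/- had all 3 correlations over 0.1 (0.388, 0.186 and 0.119), and the replicate block changed no call at the Zic2 and Zic5 windows there. In the same table they were 0.285, 0.226 and 0.071 in Ogg1-/- and 0.213, 0.177 and 0.04 in DKO. Lower correlations do not show that libraries were unpaired.

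Sequences were printed for 5 windows only. The genes and lists were chosen with earlier results of these data known. All windows of the 10 genes were accounted for, and values of every library were given for called windows and, per gene, for the window nearest to an annotated start. Of other Hedgehog pathway genes only called ones were named, and for Gli3 the 3 genes of nearest pattern. The deleted parts of Mutyh and Ogg1 were not checked here.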

Additional observations from a re-analysis of the deposited data

How the results depend on the processing

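The number of windows called in Mutyh-/- was 0, and became 3 in limma with TMM factors, 2 in edgeR with TMM factors, 1 in edgeR with the authors' factors and 1 in DESeq2, for Glis1, the Glis2 window at -7797 bp and the Zic4 window at -9789 bp. In Ogg1-/- it was 1 and became 2 in DESeq2, and in DKO it was 0 and became 1 (Glis1) in limma with TMM factors, edgeR with TMM factors and DESeq2. Non-additive calls rose from 0 to 1 with the replicate block (Zic4 at 121675 bp, 2.43, limma adjusted p = 0.847), to 1 in limma with TMM factors and to 1 in edgeR with TMM factors. Differences between fractions rose from 0 to 3, all at Glis1, in limma with TMM factors, edgeR with TMM factors and DESeq2. Leaving out 1 library gave 0 to 1 calls in Mutyh-/-, 0 to 5 in Ogg1-/- (5 without Ogg1-/- replicate 2, 0 without WT replicate 2 or without Ogg1-/- replicate 3, 2 without DKO replicate 1), 0 to 2 in DKO (2 without DKO replicate 1, 1 without WT replicate 3), 0 to 3 non-additive calls (3 without Ogg1-/- replicate 2) and 0 to 1 between fractions (1 without DKO replicate 1). The cause was not tested, and the shares of all windows called in these settings are not given beyond those printed above. The count at an adjusted p under 0.05 was 0 in every setting. Beyond Suz12 NeuN+ in Mutyh-/-, no knockout had all 3 correlations of same-numbered libraries over 0.1, which does not show that they were unpaired. Beside the non-additive call the block changed no count. The Glis1 log2 fold change in Ogg1-/- was called in 10 of 10 other settings (0.95 to 1.17) and in 10 of 12 when 1 library was left out (0.74 to 1.34 over all 12, with the other 2 above the fold threshold but not under the p threshold). Few reads limit precision: 18 of 72 values were 0 in H3K27me3 NeuN- and 14 of 84 in H3K27me3 NeuN+.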
